A study of Mus musculus with 7 samples.

Results

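The 32 genes described here encode the enzymes that make cholesterol and fatty acids and the proteins that control them. They were chosen by name, as the rows of the deposited table whose gene symbol is on a list of mevalonate and sterol enzymes, regulators of the sterol regulatory element binding proteins (SREBPs), and fatty acid synthesis, elongation and desaturation genes. *Scd3* was included because the paper measured it by qPCR, which it ran on top differential genes of its bulk RNA-seq. All 32 were among the 24346 genes of the table. RNA-seq was performed on the cerebral cortex of 7 adult male mice on a C57BL/6J background, all at postnatal day 100, with 1 library per animal. The 4 CrT-/y males carried a deletion of exons 5 to 7 of *Slc6a8*, the X-linked gene of the creatine transporter, in every cell of the body, and the 3 CrT+/y males were their wild-type littermates. Neither genotype received any treatment. Values are FPKM, fragments scaled to transcript length and to the mapped fragments of the library. Comparisons between animals depended on how the libraries were scaled, as given below.

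Cells build cholesterol from acetyl-CoA through mevalonate, farnesyl diphosphate, squalene and lanosterol. The SREBP precursors sit in the endoplasmic reticulum with Scap, and Insig proteins hold them there when sterols are plentiful. When sterols are scarce, the precursors move to the Golgi and are cut, and the released fragment enters the nucleus and switches on genes of both pathways. In the adult brain cholesterol is made locally, since lipoproteins do not cross the blood-brain barrier, and much of it is held in myelin.

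Released SREBPs bind sterol regulatory elements and usually work together with NF-Y, which binds the letters CCAAT, and so the promoter windows are shown for the 3 genes of the list with a tested difference that have a match, for *Idi1* and for *Hmgcs1*. The sequences are from RefSeq (GRCm38.p6), each with 29 bases on the strand of the gene and 1 match per gene, and the motif stands in capitals. ATTGG is CCAAT read on the opposite strand.
Cyp51, CCAAT, chr5:4104710-4104738 (minus strand): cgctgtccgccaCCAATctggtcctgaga
Hsd17b7, CCAAT, chr1:169969262-169969290 (minus strand): tgccgagtcgcgATTGGcgggcctaacgc
Srebf1, CCAAT, chr11:60210485-60210513 (minus strand): gcgcggctgctgATTGGccatgtgcgctc
Idi1, CCAAT, chr13:8885549-8885577 (plus strand): tgcctccagctgATTGGcgagcccgggca
Hmgcs1, TCACNCCAC, chr13:119690204-119690232 (plus strand): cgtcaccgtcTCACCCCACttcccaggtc
In the GENCODE annotation, the *Hsd17b7* and *Hmgcs1* windows lie outside the gene, those of *Cyp51* and *Idi1* in an exon outside its coding part, and that of *Srebf1* in an intron, before a downstream start. A promoter entry, from 250 bases before to 50 after the start, was found for 26 of the 32 genes, with 34 promoters in all. CCAAT on either strand was present in 22 of these 34 promoters (64.7%), belonging to 21 genes, against 37.4% of 32851 mouse promoters. The sterol regulatory element searched for, TCACNCCAC on either strand, was found in the *Hmgcs1* promoter alone (1 of 34, against 1.24% of all promoters). CACGTG, the palindromic E-box, was present in 7 of the 34 promoters (20.6%), of *Dhcr7*, *Elovl5*, *Hsd17b7*, *Insig1*, *Sc5d* and *Scap*, against 7.15% of all promoters. None of the 3 motifs contains another. The *Scd3* promoter held none of them.

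*Slc6a8* itself was at 12.4 to 15.7 FPKM in CrT-/y and at 28.0 to 32.3 FPKM in CrT+/y animals, and its groups did not overlap. Between 17612 and 17821 genes were above 0 FPKM in CrT-/y libraries and between 17207 and 17477 in CrT+/y libraries. The table holds no counts, and the depth estimated from weakly expressed genes lay between 0.878 and 1.25 times that of CrT-/y replicate 0. In bulk cortex, fewer cells of a type and less RNA per cell cannot be told apart. For the marker counts that follow, 7.25% of all genes tested were called lower in CrT-/y animals and 2.9% higher. The FPKM ranges beside each count are sums over all markers of that type, called or not, in CrT-/y against CrT+/y animals. The summed level of 9 oligodendrocyte markers was 414 to 666 FPKM in CrT-/y and 540 to 765 in CrT+/y animals, with CrT-/y replicate 3 and CrT+/y replicate 1 the lowest of their groups, and 1 marker was lower by the test described below. Of 4 oligodendrocyte precursor markers 1 was lower (28.6 to 32.6 against 34.8 to 38.9 FPKM), of 6 astrocyte markers none passed limma's test (2 at an unadjusted p under 0.05; 1030 to 1151 against 1127 to 1319), and of 5 endothelial markers 3 were lower (122 to 136 against 137 to 152). Among neurons, 2 of 5 excitatory markers were lower (717 to 805 against 710 to 864) and 2 of 5 inhibitory markers higher (243 to 256 against 202 to 234). None of 5 microglial markers (151 to 161 against 151 to 164) passed the test, with 0 at an unadjusted p under 0.05, and neither did the 3 tested of 4 choroid plexus and ependyma markers, whose sum reached 18.2 FPKM in CrT+/y replicate 2 and 2.92 to 5.25 in the other animals. The part of these cell types in the differences below was not tested.

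As a list, the lipid synthesis genes showed small differences between genotypes in both directions. Each gene was compared on log2(FPKM + 0.1) with limma, over the 12988 genes whose mean reached 1 FPKM, and a gene was called at an adjusted p-value under 0.1. All 32 genes passed the filter, and 4 were called (12.5%), against 10.1% of all genes tested. *Scd3* passed it only through the CrT+/y animals (mean 1.31 FPKM), as its CrT-/y values were at most 0.980 FPKM (mean 0.862). *Srebf1* was higher in CrT-/y animals (1 of 32, where 2.9% of all genes were called higher). *Cyp51*, *Hsd17b7* and *Scd3* were lower (3 of 32, where 7.25% of all genes were called lower). As *Scd3* joined the list through the paper's qPCR of top differential genes, its place in these counts is not independent of its difference. The list as a whole was also chosen with earlier results of these data known, so its shares are descriptive. The share called was near that of the whole table. In the list, 9 of the 32 were at an unadjusted p under 0.05, beside 3252 of the 12988. The log2 fold changes ran from -0.56 to 0.27 with a median of -0.06, beside -0.03 over all genes tested, and 14 were above 0 and 18 below. The 2 groups of animals did not overlap for 9 of the 32 genes (28.1%), against 21.6% of all genes tested. In 6 of these 9 the highest CrT-/y animal lay under the lowest CrT+/y animal (*Idi1*, *Cyp51*, *Hsd17b7*, *Srebf2*, *Insig2* and *Scd3*), and in 3 the order was the opposite (*Sqle*, *Tm7sf2* and *Srebf1*). How animals were scaled to each other changed the calls in both the list and the table. Over all genes, 377 were called higher and 941 lower on the deposited values, against 528 and 555 with quantile normalization, 490 and 527 with centring on the median, and 604 and 499 with scaling to the upper quartile. Of the 32 genes, *Srebf1* was called under each of these 3 scalings, *Cyp51* and *Hsd17b7* were under none except *Cyp51* after median centring, and *Scd3* was called after quantile normalization.

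**Figure D1:**
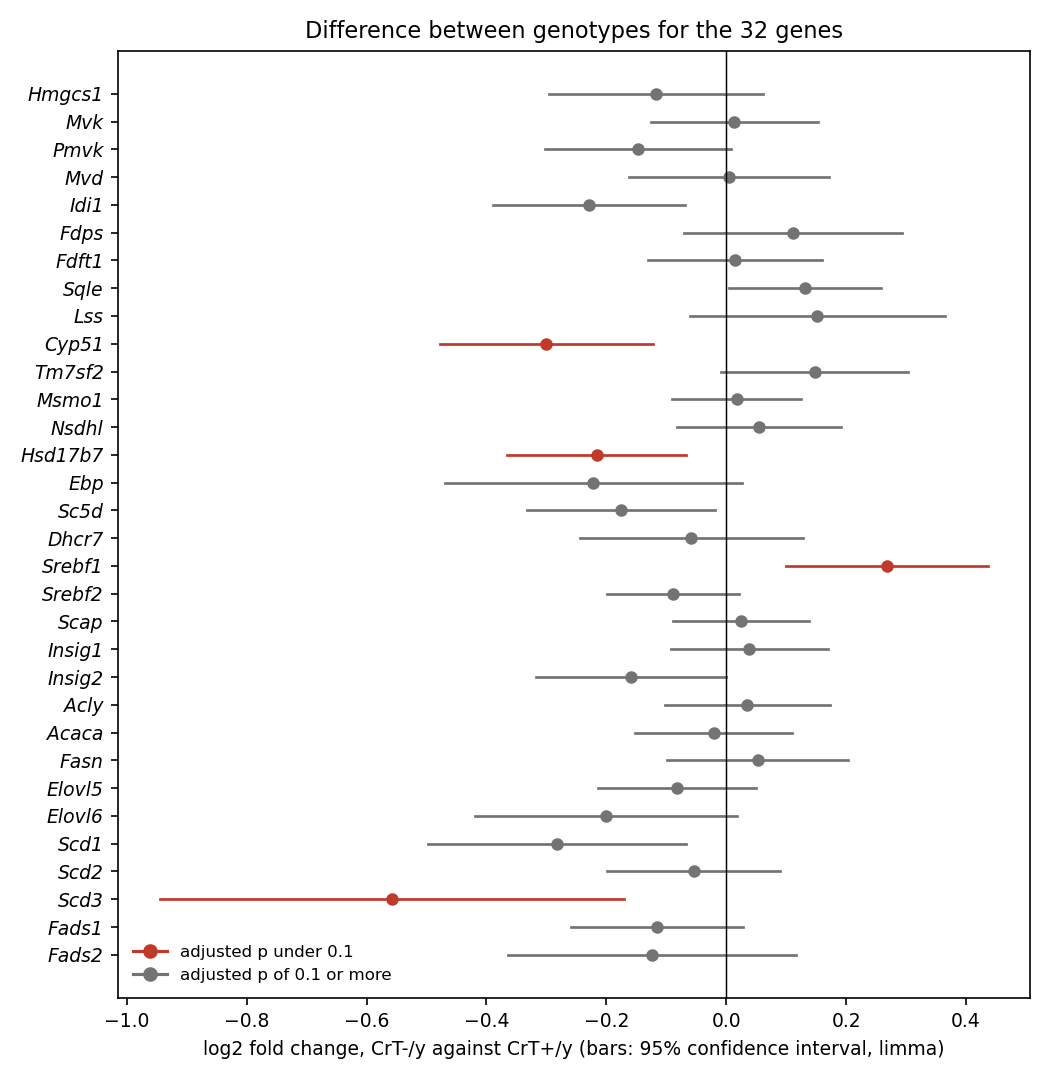
Log2 fold change of each of the 32 genes, CrT-/y against CrT+/y animals, on log2(FPKM + 0.1), with the 95% confidence interval from limma. Red marks the 4 called genes, with *Srebf1* to the right of 0 and *Cyp51*, *Hsd17b7* and *Scd3* to the left.

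The mevalonate branch turns acetyl-CoA units into farnesyl diphosphate, and none of its 6 genes passed limma's test (1 was at an unadjusted p under 0.05; median log2 fold change -0.06). *Idi1*, which interconverts the isoprenoid building blocks, was nearest. Its FPKM in CrT-/y replicates 0 to 3 were 25.6, 25.1, 25.8 and 25.1, and those in CrT+/y replicates 1 to 3 were 32.9, 30.1 and 26.7. All CrT-/y animals lay within 1 FPKM of each other and below the CrT+/y animals, among which replicate 3 was the lowest. The log2 fold change was -0.23 ± 0.07 (SE; adjusted p = 0.1003 with limma, just outside the threshold; two-sided exact permutation p = 0.0286, the lowest value possible with 35 splits). *Hmgcs1*, the synthase that makes the precursor of mevalonate, was at 124, 112, 117 and 131 FPKM in CrT-/y and at 138, 139 and 117 FPKM in CrT+/y animals. Here CrT+/y replicates 1 and 2 lay above all CrT-/y animals and replicate 3 among them (log2 fold change -0.12 ± 0.08, adjusted p = 0.382). *Pmvk*, which adds the second phosphate, showed 22.6 to 25.8 against 24.5 to 28.1 FPKM (-0.15 ± 0.07, adjusted p = 0.219). *Mvk*, the first kinase (10.4 to 10.8 against 9.85 to 11.1 FPKM), and *Mvd*, the decarboxylase (11.3 to 12.6 against 11.0 to 12.8 FPKM), had means within 1% of each other. *Fdps*, which joins the units into farnesyl diphosphate, was at 36.0 to 38.1 FPKM in CrT-/y and at 30.1, 34.3 and 38.8 FPKM in CrT+/y animals, so that replicate 3 was above and the other 2 below the CrT-/y range (0.11 ± 0.08, adjusted p = 0.418).

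From squalene to cholesterol, 2 of 11 enzyme genes were lower in CrT-/y animals, and the other 9 did not pass the test (median log2 fold change 0.02). Over all genes tested, 7.25% were called lower. Of all 17 sterol synthesis enzymes 2 were called (11.8%), against 10.1% of all genes tested. Both lower genes, *Cyp51* and *Hsd17b7*, act in removing methyl groups from lanosterol, as do *Msmo1* and *Nsdhl*, which did not pass the test. *Cyp51*, the lanosterol demethylase, was at 18.7, 18.3, 20.6 and 18.3 FPKM in CrT-/y replicates 0 to 3 and at 24.7, 24.9 and 20.8 FPKM in CrT+/y replicates 1 to 3. The groups did not overlap, but CrT-/y replicate 2 and CrT+/y replicate 3 were nearly level. *Cyp51* was thus at 81.0% of the CrT+/y mean (19.0 ± 1.11, SD, n = 4, against 23.5 ± 2.34 FPKM, SD, n = 3), and its log2 difference was -0.30 ± 0.08 (limma, adjusted p = 0.067; exact permutation p = 0.0286). *Hsd17b7*, a ketosteroid reductase that acts after it on the same ring carbon as *Nsdhl*, was at 7.998, 8.52, 8.10 and 8.97 FPKM in CrT-/y and at 9.54, 10.1 and 9.61 FPKM in CrT+/y animals. The highest CrT-/y animal, replicate 3, was below the lowest CrT+/y animal. Its log2 fold change was -0.22 ± 0.07 (86.0% of the CrT+/y mean; adjusted p = 0.097 with limma; exact permutation p = 0.0571). Both calls were lost when any animal other than CrT+/y replicate 3 was left out, with adjusted p up to 0.187 for *Cyp51* and 0.226 for *Hsd17b7*, while without CrT+/y replicate 3 they were 0.0089 and 0.062.

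The neighbours of *Cyp51* and *Hsd17b7* in the pathway gave other values. *Msmo1*, the methyl sterol monooxygenase between them, was at 54.3 to 57.0 FPKM in CrT-/y and 54.1 to 56.5 in CrT+/y animals (0.02 on the log2 scale, 95% confidence interval -0.09 to 0.12). *Nsdhl*, the dehydrogenase of the same step, was at 11.6 to 12.2 against 11.0 to 12.2 FPKM (0.05, adjusted p = 0.612). *Sqle*, the squalene epoxidase and a rate-controlling step, was at 24.6, 25.6, 25.8 and 25.9 FPKM in CrT-/y and at 22.0, 24.5 and 23.4 FPKM in CrT+/y animals, without overlap. CrT-/y replicate 0 and CrT+/y replicate 2 were the closest pair, and the difference did not pass the test (0.13 ± 0.06, adjusted p = 0.187; exact permutation p = 0.0286). *Tm7sf2*, a sterol reductase that acts on the product of *Cyp51*, was also above the CrT+/y range in all 4 CrT-/y animals (10.8 to 12.2 against 9.79 to 10.7 FPKM) without passing the test (0.15 ± 0.07, adjusted p = 0.219). *Fdft1*, which makes squalene (25.6 to 28.7 against 25.4 to 28.5 FPKM), and *Lss*, which folds it into lanosterol (8.19 to 9.44 against 7.15 to 9.25 FPKM), overlapped between genotypes. In the last steps *Ebp*, the sterol isomerase, was at 7.69 to 9.48 against 9.03 to 12.1 FPKM (-0.22, adjusted p = 0.243), and its CrT+/y maximum was replicate 3. *Sc5d*, the sterol desaturase, was at 31.1 to 34.1 FPKM in CrT-/y and at 38.9, 39.1 and 33.2 FPKM in CrT+/y animals, so that CrT+/y replicate 3 again fell among the CrT-/y animals (-0.18 ± 0.07, adjusted p = 0.166). *Dhcr7*, a terminal reductase, was at 13.1 to 15.8 against 13.9 to 16.4 FPKM (-0.06, adjusted p = 0.696).

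**Figure D2:**
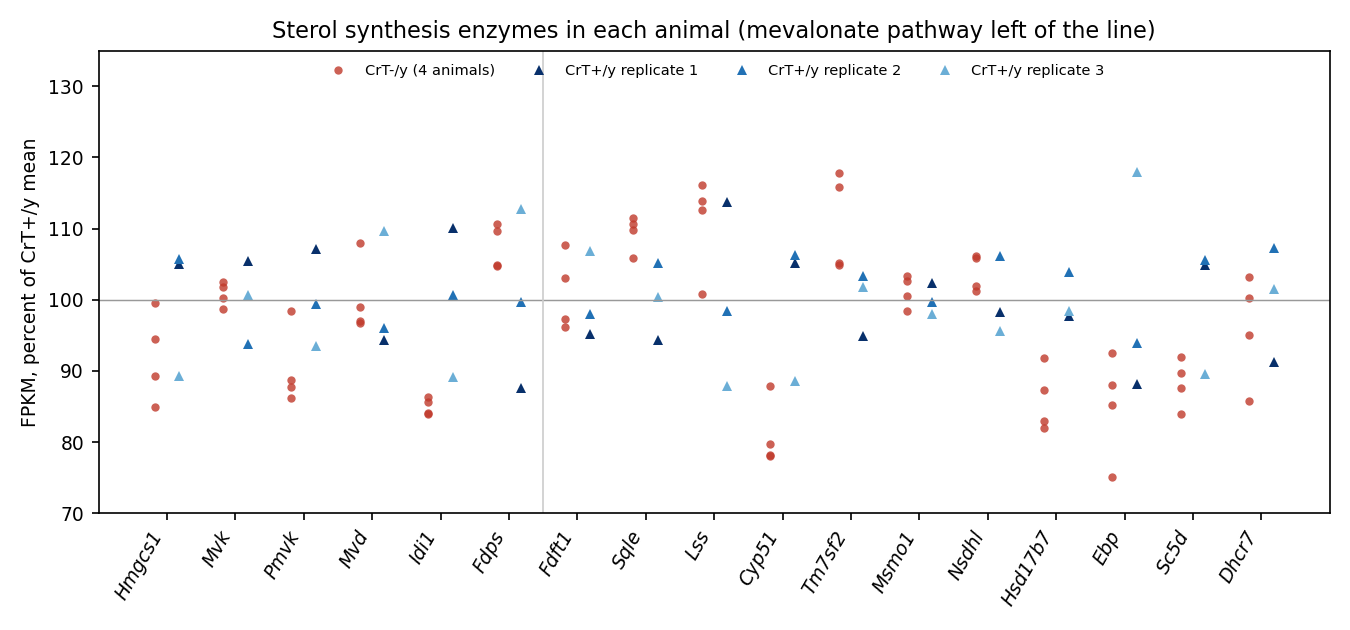
FPKM of the 17 sterol synthesis genes in each animal, as percent of the CrT+/y mean of the gene; circles are the 4 CrT-/y animals and triangles CrT+/y replicates 1, 2 and 3. For *Cyp51* and *Hsd17b7* every circle lies below every triangle, and for *Sc5d* and *Hmgcs1* the triangle of replicate 3 lies among the circles.

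Of the 5 genes that control SREBP activity, 1 passed the test, as did 10.1% of all genes tested. It was the only gene of the list called higher in CrT-/y animals (2.9% of all genes were called higher). *Srebf1*, which encodes the SREBP forms best known for fatty acid genes, was at 16.5, 15.1, 15.3 and 16.3 FPKM in CrT-/y replicates 0 to 3 and at 11.8, 14.1 and 13.5 FPKM in CrT+/y replicates 1 to 3. All CrT-/y animals were above all CrT+/y animals, and CrT+/y replicate 1 was the lowest. Its level was 120% of the CrT+/y mean (15.8 ± 0.707, SD, n = 4, against 13.1 ± 1.22 FPKM, SD, n = 3; 0.27 ± 0.07 on the log2 scale, limma adjusted p = 0.078; exact permutation p = 0.0286). The call remained without CrT+/y replicate 2 or 3 and was lost without any other animal (adjusted p up to 0.193). *Srebf1* lies on chromosome 11 (60199089 to 60222581, minus strand), and its value sums transcripts from several starts, so it cannot show which form differed.

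The other regulators did not pass the test. *Srebf2*, whose product acts mainly on sterol genes, was expressed at 72.0, 69.95, 69.6 and 66.9 FPKM in CrT-/y and 72.6, 73.9 and 75.5 FPKM in CrT+/y animals. The groups were apart by less than 1 FPKM at their nearest point, and the log2 fold change was -0.09 ± 0.05 (adjusted p = 0.284). *Insig2*, an endoplasmic reticulum anchor of the SREBP complex, was at 18.8 to 19.6 FPKM in CrT-/y and at 19.9, 20.4 and 23.9 FPKM in CrT+/y animals, also without overlap (-0.16 ± 0.07, adjusted p = 0.197). *Insig1*, its paralog and itself a sterol-responsive gene, overlapped (39.8 to 44.4 against 38.8 to 42.7 FPKM; 0.04, 95% confidence interval -0.09 to 0.17). *Scap*, the escort of the SREBPs, was at 27.6 to 28.3 against 26.5 to 28.6 FPKM (0.02, 95% confidence interval -0.09 to 0.14).

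Fatty acid synthesis proper showed no difference called by limma, and 0 of its 3 genes were at an unadjusted p under 0.05. *Acly* makes cytosolic acetyl-CoA from citrate, *Acaca* carboxylates it and *Fasn* builds palmitate. *Acly* was at 42.9 to 44.9 FPKM in CrT-/y and at 38.9, 43.6 and 45.3 FPKM in CrT+/y animals (0.04 on the log2 scale, adjusted p = 0.757). *Fasn* was at 44.7 to 50.1 FPKM in CrT-/y and at 41.6, 46.3 and 48.7 FPKM in CrT+/y animals (0.05, adjusted p = 0.659). In both genes CrT+/y replicate 1 was the lowest of the 7 animals and the others were mixed. *Acaca* was at 14.0 to 14.9 against 13.8 to 15.1 FPKM, and its log2 fold change of -0.02 was above 0 under each of the other scalings. The elongases, which lengthen fatty acids, were both below 0 without passing the test (0 of 2 at an unadjusted p under 0.05). *Elovl6*, which extends palmitate, was at 10.2, 10.5, 10.6 and 10.01 FPKM in CrT-/y and at 10.3, 14.1 and 11.6 FPKM in CrT+/y animals (-0.20 ± 0.10, adjusted p = 0.233), so the CrT+/y animals differed more among themselves than the genotypes did. *Elovl5*, which extends polyunsaturated fatty acids, was at 29.7 to 32.1 against 31.6 to 35.2 FPKM (-0.08, adjusted p = 0.412).

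The desaturases place double bonds in fatty acids, and 1 of 5 was lower in CrT-/y animals (7.25% of all genes were called lower). It was *Scd3*, which joined the list through the paper's qPCR of top differential genes and passed the filter only through the CrT+/y animals. The count is therefore not independent of its difference. All 5 desaturases had log2 fold changes below 0 (median -0.12), as did 7554 of the 12988 genes tested. *Scd1*, *Scd2* and *Scd3* belong to the stearoyl-CoA desaturase family, whose enzymes make monounsaturated fatty acids, and lie in 1 cluster with *Scd4* on chromosome 19. *Scd2*, the main brain form, was at 390, 353, 372 and 338 FPKM in CrT-/y and at 369, 386 and 375 FPKM in CrT+/y animals, with the CrT+/y animals inside the range of the CrT-/y ones (log2 fold change -0.05, adjusted p = 0.633; 0.0043 after correction for transcript length). *Scd1* was at 59.2, 50.97, 55.9 and 54.9 FPKM in CrT-/y and at 74.2, 71.9 and 56.7 FPKM in CrT+/y animals. Again CrT+/y replicates 1 and 2 were above and replicate 3 within the CrT-/y range, and the difference did not pass the test (-0.28 ± 0.10, adjusted p = 0.119; exact permutation p = 0.0571). *Scd3* was at 0.957, 0.735, 0.773 and 0.980 FPKM in CrT-/y replicates 0 to 3 and at 1.21, 1.27 and 1.44 FPKM in CrT+/y replicates 1 to 3. The groups did not overlap, and here CrT+/y replicate 3 was the highest animal. *Scd3* had the largest fold difference of the list (65.8% of the CrT+/y mean; -0.56 ± 0.17, adjusted p = 0.098 with limma; exact permutation p = 0.0286), at the lowest level. The call was lost in each of the 6 fits without 1 animal in which it was tested (adjusted p from 0.137 to 0.223), and without CrT+/y replicate 3 its mean was under the filter. *Fads1* and *Fads2*, the front-end desaturases of polyunsaturated fatty acids, were at 74.0 to 79.9 against 76.8 to 90.2 FPKM (-0.12, adjusted p = 0.286) and at 78.1 to 92.0 against 76.5 to 105 FPKM (-0.12, adjusted p = 0.499).

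**Figure D3:**
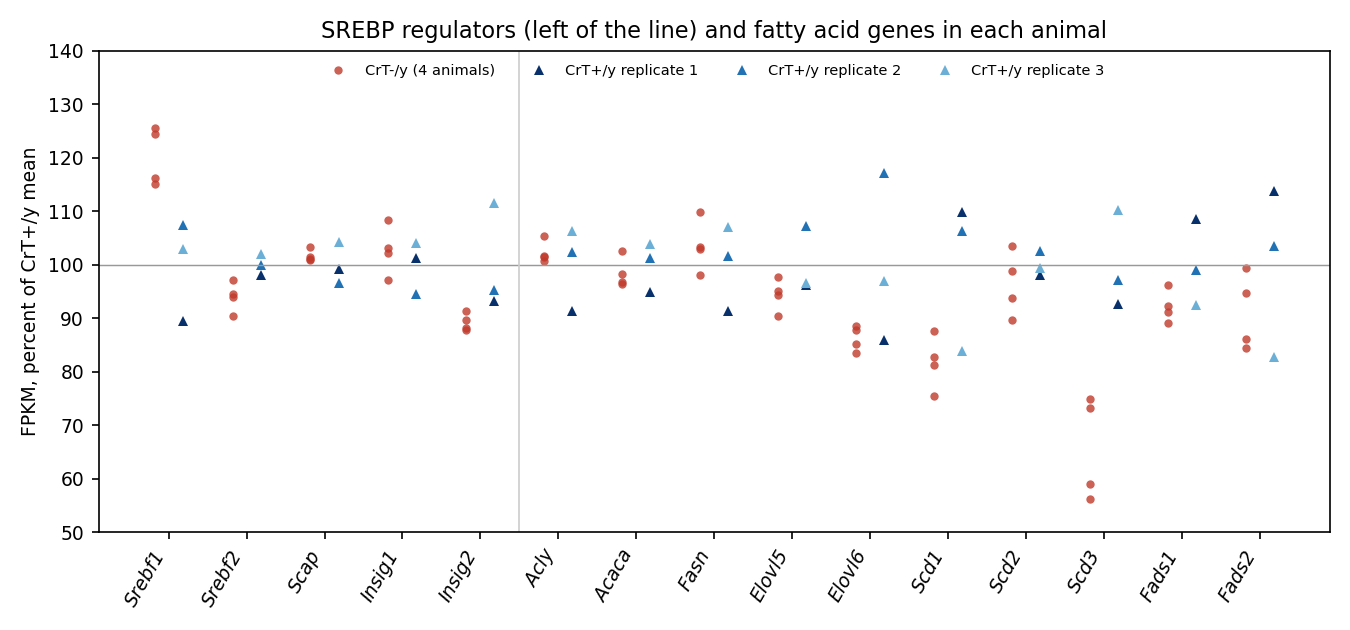
FPKM of the 5 SREBP regulators and the 10 fatty acid genes in each animal, as percent of the CrT+/y mean of the gene; circles are the 4 CrT-/y animals and triangles CrT+/y replicates 1, 2 and 3. The circles lie above all triangles for *Srebf1* and below all triangles for *Srebf2*, *Insig2* and *Scd3*.

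The stearoyl-CoA desaturases are close paralogs that differ by orders of magnitude in level. *Scd2* made up 85.8% to 87.2% of the summed *Scd1* to *Scd4* FPKM in CrT-/y and 83.0% to 86.5% in CrT+/y animals, and *Scd1* 12.6% to 13.9% and 13.1% to 16.7%. *Scd3* was 0.1802% to 0.249% of the sum in CrT-/y and 0.273% to 0.334% in CrT+/y animals, and *Scd4* was at 0.0713 to 0.177 FPKM over the 7 animals, under the filter. Set against *Scd1* within each animal, *Scd3* was at 1.56 ± 0.182 FPKM per 100 FPKM of *Scd1* in CrT-/y (SD, n = 4) and 1.98 ± 0.494 in CrT+/y animals (SD, n = 3; exact permutation test, two-sided, p = 0.171). This ratio was 1.63, 1.77 and 2.55 in CrT+/y replicates 1 to 3 and 1.38 to 1.79 in CrT-/y animals, so replicate 3 alone stood above. Reads assigned to the wrong paralog were not measured. Of the 3340 windows of 150 bases in the *Scd3* transcript, 110 (3.29%) were within 2 mismatches of *Scd1*, *Scd2* or *Scd4*. The same share was 4.25% for *Scd1* and 3.90% for *Scd2*. The qPCR primers that the study designed for *Scd3* show this difference between stretches, with each read here against the transcripts of all 4 paralogs.
Scd3 forward primer: cagaatgccctggtttccttgg
Scd3 reverse primer: cgtggtgaagttgatgtgccag
The forward primer matched *Scd3* with 0 mismatches and had at least 4 in *Scd1* and 6 in *Scd2* and *Scd4*, whereas the reverse primer matched all 4 transcripts with 0 mismatches.

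**Figure D4:**
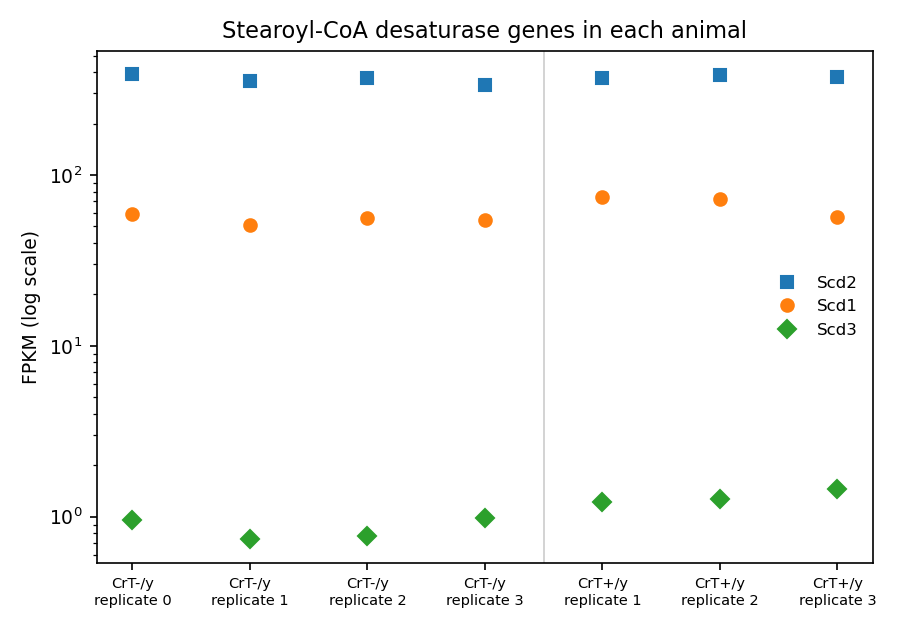
FPKM of *Scd1*, *Scd2* and *Scd3* in each of the 7 animals on a log scale, with CrT-/y animals left of the line and CrT+/y animals right of it. The 3 genes keep the same order in every animal, and *Scd3* is at or below 0.980 FPKM in CrT-/y and at or above 1.21 FPKM in CrT+/y animals.

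The size of the differences and the calls depended on single animals, and the number of calls was highest without CrT+/y replicate 3. CrT+/y replicate 3 lay within the CrT-/y range for 12 of the 32 genes (37.5%), against 41.2% of all genes tested, while replicate 1 did so for 8 (25.0%, against 30.8%) and replicate 2 for 6 (18.8%, against 33.4%). For 12 genes both replicates 1 and 2 were above the CrT-/y range (37.5%, against 27.4% of all genes tested). In 6 of the 12 replicate 3 was above as well (*Idi1*, *Cyp51*, *Hsd17b7*, *Srebf2*, *Insig2* and *Scd3*), and in *Hmgcs1*, *Pmvk*, *Sc5d*, *Scd1*, *Fads1* and *Fads2* it was not. Over all genes tested the same held for 1948 of 3553, so this split was near that of the table. Without replicate 3, 11 of the 31 genes tested were called (35.5%), against 28.7% of 12997 genes. *Srebf1* and *Fdps* were then higher in CrT-/y animals, and *Hmgcs1*, *Pmvk*, *Idi1*, *Cyp51*, *Hsd17b7*, *Sc5d*, *Scd1*, *Fads1* and *Fads2* were lower. The log2 fold change of *Scd1* was -0.40 (adjusted p = 0.0078 with limma), that of *Cyp51* -0.38 and that of *Idi1* -0.31 (adjusted p = 0.010) in this comparison of 4 with 2 animals. The groups then did not overlap for 18 of the 32 genes (56.2%), against 43.7% of all genes tested. The labels give no reason to leave this animal out. Other CrT+/y animals moved other genes. Without replicate 1 the log2 fold change of *Fdps* went from 0.11 to 0.02, that of *Fads2* from -0.12 to -0.02 and that of *Dhcr7* from -0.06 to -0.12, and without replicate 2 that of *Elovl6* went from -0.20 to -0.08.

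**Figure D5:**
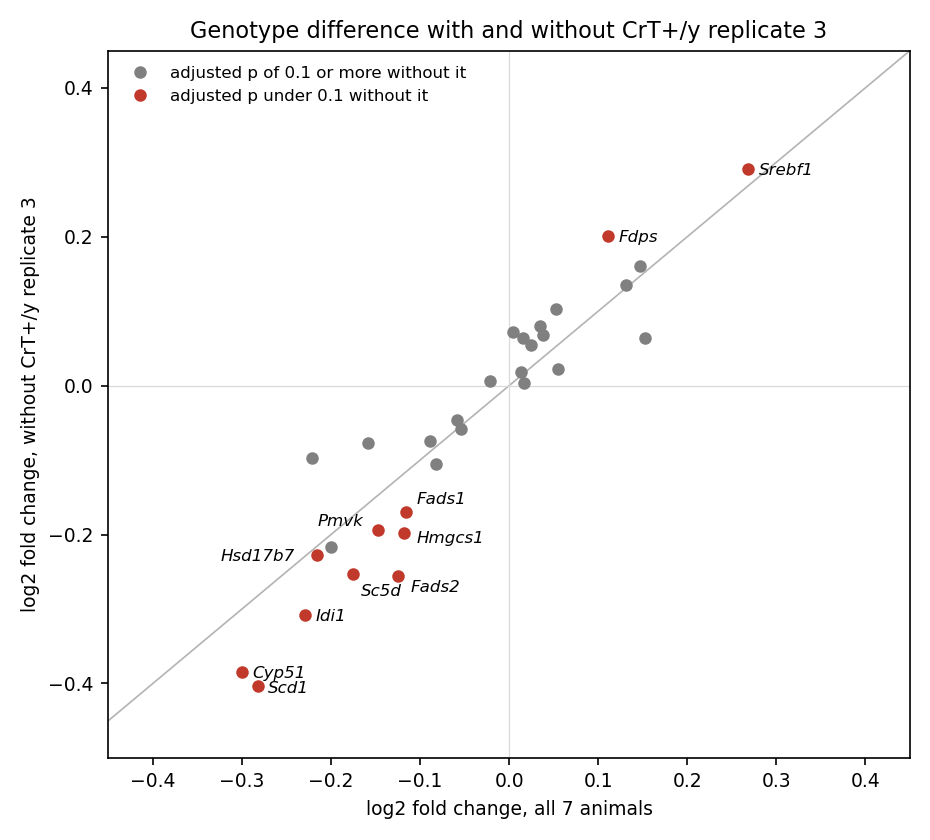
Log2 fold change of 31 genes between genotypes with all 7 animals (horizontal) and without CrT+/y replicate 3 (vertical); the diagonal marks equal values, and *Scd3*, under the filter without this animal, is not shown. The 11 genes in red had an adjusted p-value under 0.1 without it, with *Cyp51*, *Scd1* and *Idi1* the farthest below 0.

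Among 44 other genes of these pathways, 41 were tested. In CrT-/y animals 3 were higher and 1 lower (9.76% called, against 10.1% of all genes tested). Over all genes tested, 2.9% were called higher and 7.25% lower. The median log2 fold change of the 41 genes was -0.05, beside -0.03 over all genes tested. Of 10 further sterol and SREBP genes 2 were higher, none of 9 tested genes of cholesterol handling passed the test (1 at an unadjusted p under 0.05), and of 22 tested fatty acid genes 1 was higher and 1 lower. *Mbtps1*, the protease that makes the first cut in SREBPs in the Golgi, was at 22.4 ± 0.917 FPKM in CrT-/y (SD, n = 4) and 19.6 ± 0.815 FPKM in CrT+/y animals (SD, n = 3; 0.19 ± 0.06, adjusted p = 0.091 with limma). *Pgrmc1*, a haem-binding partner of Cyp51, was at 156 ± 6.39 against 132 ± 10.6 FPKM (0.24 ± 0.07, adjusted p = 0.075). *Slc25a1*, which exports mitochondrial citrate for lipid synthesis, was at 16.9 ± 0.710 against 14.5 ± 0.413 FPKM (0.22 ± 0.06, adjusted p = 0.067). *Acsl3*, a fatty acid activating enzyme of the endoplasmic reticulum and lipid droplets, was at 62.2 ± 1.90 against 78.0 ± 8.67 FPKM (-0.32 ± 0.08, adjusted p = 0.056). The groups did not overlap in 13 of the 41 tested genes (31.7%), against 21.6% of all genes tested. All 4 called genes were among these 13, and *Srebf1*, *Cyp51*, *Hsd17b7* and *Scd3* did not overlap either. As the calls were made on the same animals, this is no separate support for them. The calls of *Mbtps1*, *Pgrmc1*, *Slc25a1* and *Acsl3* were also lost in most fits without 1 animal. *Mbtps1* and *Pgrmc1* were called in 1 of 7 such fits, the one without CrT+/y replicate 3 (adjusted p up to 0.224 and 0.192 in the others), and *Slc25a1* and *Acsl3* in 2 of 7, without that animal or without CrT-/y replicate 0 (adjusted p up to 0.175 and 0.151).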

How the data were processed

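Bulk RNA-seq of cerebral cortex from 4 CrT-/y and 3 CrT+/y mice was analysed (mRNA libraries, paired reads of 150 bases). The authors aligned reads to mm10 with the Tuxedo protocol, kept unique alignments with at most 2 mismatches, and deposited FPKM per gene and animal. The submitters' processing notes name Bowtie and Cuffnorm without versions. Groups and replicate numbers came from the labels, whose design text calls the animals biological replicates.

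FPKM are not counts, so no count model was used. Genes whose mean reached 1 FPKM entered a limma fit (version 3.58.1, R 4.3.3) on log2(FPKM + 0.1), with a trend of the variance and Benjamini-Hochberg adjustment over all 12988 genes tested. The added 0.1 understates fold changes of low genes such as *Scd3*. Single genes and the *Scd3* ratio also had exact permutation tests over the 35 splits. Positions and transcripts came from GENCODE M21 (GRCm38), and promoters from RefSeq (GRCm38.p6). Other steps used scipy 1.17.1, numpy 2.4.6 and pandas 2.3.3 under Python 3.11.15.

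The 32 genes, the other pathway genes and the marker lists were chosen with earlier results of these data known. All 32 are accounted for. Of the other pathway genes, those with an adjusted p-value under 0.1 and the 3 with the smallest p-values were named, and markers are given as sums. The alternatives were 18 in number (pseudocounts, filters, scalings, variance models, a replicate block and each animal left out), and the overlap counts and sterol enzyme median without CrT+/y replicate 3 were chosen after seeing the data. The labels do not tie replicate numbers to litters, and the animals were treated as unpaired. Correlations of deviations were -0.08, 0.05 and -0.05 for numbers 1, 2 and 3. Differently numbered pairs ran from -0.20 to 0.25, so these values cannot show whether the animals were paired.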

Additional observations from a re-analysis of the deposited data

How the results depend on the processing

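With 7 animals, few calls near the threshold were stable. Of 646 values of 36 single genes (the 32 and 4 other called genes) under the 18 alternatives, 543 kept their direction and side of the threshold, 74 lost a call, 13 gained one and 16 turned sign. Where the paragraph gives no reason, the cause was not tested. The deposited values give the depth of the libraries only in relative terms. The paper lists the reads of each replicate, which were not used here. Depth limits *Scd3*, at about 1 FPKM, more than the other genes.

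On the deposited values, 1 of the 32 genes was called higher and 3 lower. With no filter on low values, where more genes share the adjustment, 0 were called higher and 0 lower. Quantile normalization, median centring and the correction for transcript length each left 1 lower, upper quartile scaling left 0 lower, no trend of the variance left 0 higher and 1 lower, and array weights gave 5 lower. Leaving out 1 animal gave 0 to 2 higher and 0 to 9 lower, with the highest counts without CrT+/y replicate 3. The number of all genes called ran from 64 without CrT-/y replicate 1 to 3736 without CrT+/y replicate 3. The median log2 fold change of the 32 genes, -0.06, was -0.020 after quantile normalization, -0.019 after median centring, -0.0065 after upper quartile scaling and -0.0079 after correction for transcript length, and -0.087 to -0.031 with 1 animal left out. The genes whose groups did not overlap numbered 9, and 18 without CrT+/y replicate 3. The *Scd3* to *Scd1* difference (-0.43 per 100) ran from -0.60 to -0.14 with 1 animal left out. The log2 fold change of *Acaca* turned to 0.019 (quantile), 0.029 (upper quartile), 0.016 (median centring) and 0.052 (length), and that of *Scd2* to 0.0043 (length). With 1 animal left out, 8 genes crossed 0: *Mvk* ran from -0.031 to 0.052, *Mvd* from -0.035 to 0.071, *Fdft1* from -0.019 to 0.064, *Scap* from -0.00076 to 0.055, *Insig1* from -0.0012 to 0.068, *Acly* from -0.028 to 0.081, *Acaca* from -0.058 to 0.0068 and *Fasn* from -0.011 to 0.10.

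Whether the replicate numbers shared by the groups paired the animals cannot be told from the correlations of same-numbered deviations (-0.08, 0.05 and -0.05). Those of differently numbered animals ran from -0.20 to 0.25. A fit with a replicate block called 0 of the 32 genes higher and 0 lower, where their median log2 fold change was -0.087, and it called 576 genes in all. CrT-/y replicate 0 has no CrT+/y animal of its number, so it did not inform the genotype difference there. The fold changes were thus those of the fit without CrT-/y replicate 0.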
